A study of Mus musculus with 12 samples.

Results

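The glutathione S-transferase genes of the cytosolic alpha class (Gsta1, Gsta2, Gsta3 and Gsta4) and mu class (Gstm1, Gstm2, Gstm3, Gstm4, Gstm5 and Gstm6) were followed by symbol, 10 of the 24318 genes in the deposited expression table. Polyadenylated RNA had been sequenced from immortalized mouse embryonic fibroblasts (MEFs), 12 libraries in 4 groups of 3. All 4 groups carried the genotype MafF-/-::MafG-/-::MafK-/-, so the mock cells lacked the 3 small Maf genes as well. The T-N2G cells in addition expressed T-N2G, known from the study as a tethered Nrf2-MafG protein. Within T-N2G and within mock cells, one group received 100 µM diethyl maleate (DEM) and the other vehicle, both for 12 h. The labels state neither whether replicates came from separate cultures or clones, nor the promoter behind T-N2G or what the mock cells received, so the p-values measure the spread between these libraries, which may be technical.

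Glutathione S-transferases join glutathione to electrophiles so that the products can be exported from the cell. Nrf2 is a transcription factor that binds the antioxidant response element as a heterodimer with a small Maf protein, and genes of the alpha and mu classes are among its well known targets in liver. DEM is an electrophile that is itself conjugated to glutathione, lowers the cell's glutathione and activates Nrf2. The comparisons therefore address how each enzyme gene stood in cells that lacked small Maf proteins, with and without the tethered dimer, and with and without the electrophile.

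Several of these genes are near-identical copies, which limits which fragments can be told apart. The start of the coding sequence is shown as an example of how alike they are. The first 120 coding bases of the alpha genes on chromosome 9 follow, from GENCODE vM21 transcripts of GRCm38, 5′ to 3′, with bases that differ from Gsta1 in capitals.
Gsta1: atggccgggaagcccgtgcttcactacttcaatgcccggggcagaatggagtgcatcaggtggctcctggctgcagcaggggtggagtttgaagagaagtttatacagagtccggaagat
Gm3776: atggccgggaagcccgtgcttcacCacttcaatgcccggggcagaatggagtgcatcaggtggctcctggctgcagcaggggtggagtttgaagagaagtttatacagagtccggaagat
Gsta2: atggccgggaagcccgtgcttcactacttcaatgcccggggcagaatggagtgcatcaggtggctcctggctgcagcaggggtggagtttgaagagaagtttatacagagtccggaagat
Gsta4: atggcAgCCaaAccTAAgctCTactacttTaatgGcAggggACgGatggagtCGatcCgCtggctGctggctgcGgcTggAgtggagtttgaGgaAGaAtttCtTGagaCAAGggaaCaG
Gm3776, a neighbouring gene that is not among the 10, differed from Gsta1 at 1 of these bases, Gsta2 at 0 and Gsta4 at 36. Over whole coding sequences, 670 of 672 bases of Gsta1 were identical in Gm3776 (99.7%), 97.5% in Gsta2, 74.0% in Gsta3 and 66.1% in Gsta4.

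The first 120 coding bases of 3 mu genes on chromosome 3 are given in the same way, with bases that differ from Gstm1 in capitals.
Gstm1: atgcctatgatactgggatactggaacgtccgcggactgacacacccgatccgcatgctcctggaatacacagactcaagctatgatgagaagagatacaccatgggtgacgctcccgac
Gstm2: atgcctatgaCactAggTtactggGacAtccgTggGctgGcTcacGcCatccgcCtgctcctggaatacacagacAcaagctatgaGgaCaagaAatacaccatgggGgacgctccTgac
Gstm3: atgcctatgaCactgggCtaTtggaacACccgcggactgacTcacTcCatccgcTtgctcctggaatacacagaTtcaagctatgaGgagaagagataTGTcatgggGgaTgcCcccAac
Gstm2 and Gstm3 each differed from Gstm1 at 18 of the 120 bases. The coding sequences of Gstm2 and Gstm3 were 86.0% and 89.5% identical to that of Gstm1, and that of Gstm5 was 69.5% identical. In windows of 50 bases of transcript, 90.5% of those of Gsta1 and 49.8% of those of Gsta2 were found letter for letter in another gene, against 18.9% for Gstm1, 5.7% for Gstm2 and 0.3% for Gsta3. No window of Gsta4, Gstm4 or Gstm5 was shared. The counts of Gsta1, Gsta2 and Gm3776 are therefore uncertain one by one, since the counting could split fragments among them, while those of Gsta4, Gstm4 and Gstm5 do not carry this limit. The read length is not given in the sources used here.

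Library totals lay between 18863560 and 23095692 fragments. As a check of the labels, Mafg stood at 95.7 to 161 CPM (counts scaled to library depth) in T-N2G libraries and 0.472 to 0.932 in mock libraries, and Nfe2l2, which encodes Nrf2, at 454 to 701 and 47.4 to 66.7 CPM. Maff and Mafk, labelled as deleted in all cells, still had 3.08 to 5.69 and 1.42 to 2.68 CPM over the 12 libraries, and counts per gene do not separate the deleted stretch from the rest of a gene, so they do not check these deletions. All 9 fibroblast markers averaged above 1 CPM in every group, the 6 hepatocyte markers summed to 0.0491 to 0.382 CPM in a library (Ttr, Fgb and Tat at 0) and, of 6 epithelial markers, Krt19 was the one above 1 CPM. Of 5 macrophage and leukocyte markers 2 exceeded 1 CPM (summed 4.41 to 7.36 CPM, Adgre1 at 0), and none of 5 muscle markers did (Actc1 at 0). Of 4 endothelial markers 2 exceeded 1 CPM (summed 4.95 to 15.5 CPM). The 4 Y-linked genes summed to 20.7 to 24.9 CPM in T-N2G libraries and 11.5 to 16.2 CPM in mock libraries. For each of the 4, every T-N2G library lay above every mock library given the same treatment. Ddx3y was called higher with T-N2G in vehicle (log2 0.70 ± 0.11, adjusted p = 0.0154) and in DEM (log2 0.84 ± 0.11, adjusted p = 0.000612). Eif2s3y (log2 0.67 ± 0.15, adjusted p = 0.0301) and Uty (log2 0.87 ± 0.205, adjusted p = 0.0358) were called higher in DEM, and Kdm5d was not called. The part of this in the results was not tested. Replicate 3 of every group carried a different series of library codes from replicates 1 and 2. In bulk RNA, fewer cells expressing a gene and less RNA per cell cannot be told apart. Fold changes, SEs and adjusted p-values below are from quasi-likelihood F tests in edgeR, adjusted by the Benjamini-Hochberg method over 12469 tested genes, and a gene was called at an adjusted p under 0.05. Of the 10 genes, 7 passed the filter on low counts, Gsta1 and Gsta3 through the T-N2G DEM libraries in which they were highest; Gsta2, Gstm3 and Gstm6 did not pass. A gene that passed in this way had to stand high in T-N2G DEM. In comparisons with that group Gsta1, Gsta3 and the copy Gm3776, which also passed through it, are therefore left out of the counts. They are given mainly by their fragments, and for Gsta1 and Gsta3 by the edgeR fit with no filter on low counts.

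The order of transcript levels, compared per length as FPKM (fragments scaled to transcript length and library depth), differed between T-N2G and mock cells. Summed over the 10 genes, FPKM was 350 ± 60.2 in T-N2G DEM, 70.5 ± 14.2 in T-N2G vehicle, 20.2 ± 2.61 in mock DEM and 25.3 ± 5.35 in mock vehicle (SD, n = 3 each). Gsta4, whose enzyme conjugates hydroxynonenal and other products of lipid peroxidation, made up 66.5% of the sum in T-N2G DEM, 38.1% in T-N2G vehicle, 7.28% in mock DEM and 6.55% in mock vehicle. Gstm5 made up 3.76%, 23.4%, 61.1% and 63.3% in the same order of groups, and Gstm1 26.8%, 28.3%, 15.5% and 15.6%. In both mock groups Gstm5 thus had the highest level of the 10, with no overlap with Gstm1, the next in order. In T-N2G DEM the order was Gsta4, Gstm1, Gstm5, Gstm2, Gsta1 and Gsta3, and none of these neighbours overlapped. In T-N2G vehicle the ranges of Gsta4 and Gstm1 overlapped, as did those of Gstm1 and Gstm5.

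**Figure D1:**
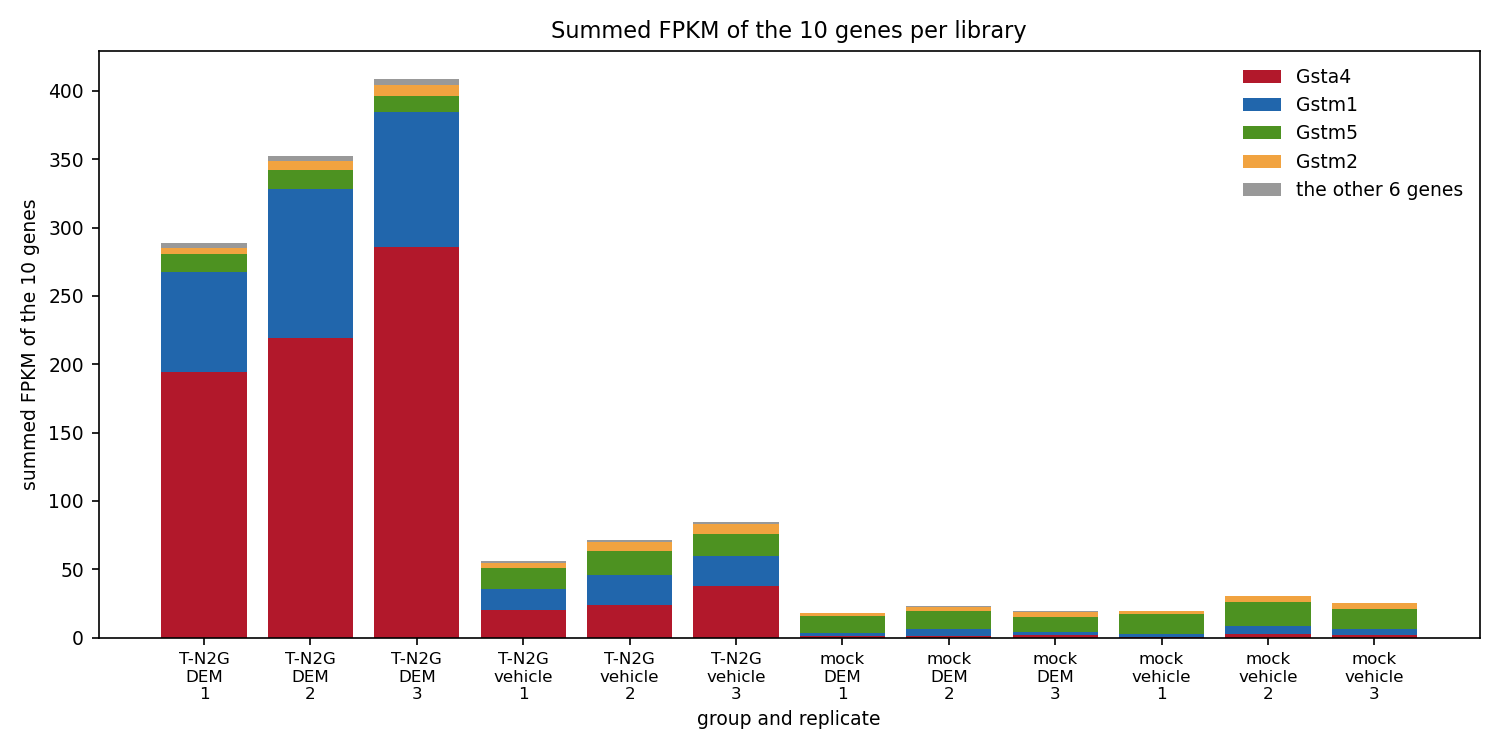
Summed FPKM of the 10 alpha and mu class genes in each of the 12 libraries, split by gene in stacked bars from 0 (groups and replicates on the x axis). The T-N2G DEM bars reach 289 to 409 FPKM and consist mostly of Gsta4 (red) and Gstm1 (blue), while the mock bars stay between 18.2 and 30.5 FPKM and are mostly Gstm5 (green).

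Gsta4 showed the widest range. It had 195, 219 and 286 FPKM in T-N2G DEM and 19.9, 24.1 and 37.6 FPKM in T-N2G vehicle, replicates 1 to 3. In mock cells it had 1.10, 1.46 and 1.82 FPKM with DEM and 0.660, 2.60 and 1.99 FPKM with vehicle. Every T-N2G DEM library lay above every T-N2G vehicle library, and these above every mock library, whereas the mock DEM and mock vehicle libraries overlapped. Gstm1, a major mu class enzyme of liver, followed the same order of groups. It had 73.1, 109 and 98.7 FPKM in T-N2G DEM and 15.9, 21.5 and 22.2 FPKM in T-N2G vehicle. In mock cells it had 2.42, 4.54 and 2.59 FPKM with DEM and 2.14, 6.16 and 3.997 FPKM with vehicle. Here too the T-N2G DEM, T-N2G vehicle and mock libraries did not overlap, and the mock groups did. For Gsta4 and Gstm1, replicate 1 was the lowest of its group in all 4 groups.

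**Figure D2:**
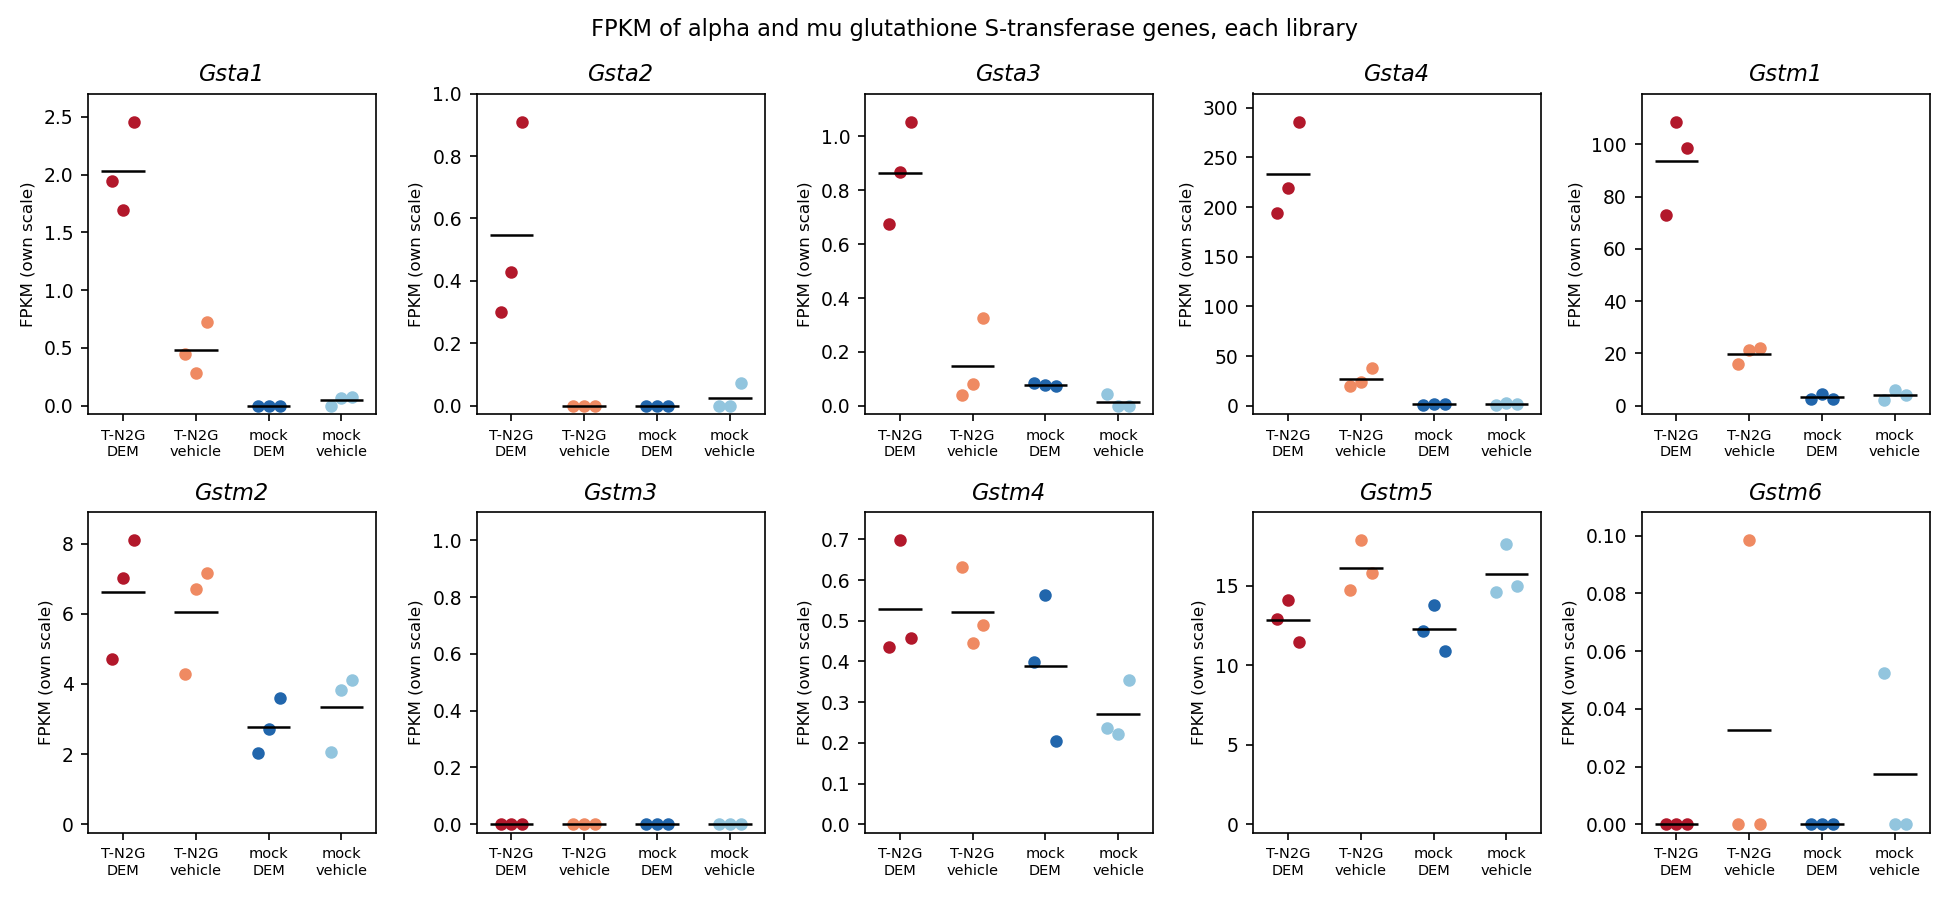
FPKM of each of the 10 genes in the 12 libraries, one panel per gene with its own linear y axis from 0 (points are libraries, replicates 1 to 3 from left to right, and the line is the group mean). Gsta1, Gsta2, Gsta3, Gsta4 and Gstm1 are highest in the 3 T-N2G DEM libraries, Gstm2 lies higher in the T-N2G libraries than in the mock libraries given the same treatment, Gstm5 is lower with DEM than with vehicle in both kinds of cell, and Gstm3 is at 0 throughout.

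In DEM, Gsta4, Gstm1 and Gstm2, 3 of the 10 genes, were higher in T-N2G cells than in mock cells, and of all tested genes 2.61% were called higher and 1.11% lower, the lower ones with none of the 10. Gsta1 and Gsta3 were also called higher, through the filter described above, and are given separately. Gsta4 was 158-fold higher (log2 7.30 ± 0.35, adjusted p = 1.62e-07). Gstm1 was 29.4-fold higher (log2 4.88 ± 0.32, adjusted p = 2.3e-06). By replicate number, the ratio of CPM was 177, 151 and 157 for Gsta4 and 30.4, 24.0 and 38.0 for Gstm1, so each number gave a ratio of similar size.

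Gstm2, another mu class enzyme, was 2.36-fold higher in T-N2G DEM than in mock DEM (log2 1.24 ± 0.31, adjusted p = 0.0475). It had 4.71, 7.04 and 8.10 FPKM in T-N2G DEM and 2.03, 2.72 and 3.61 FPKM in mock DEM, without overlap. The CPM ratios by replicate number were 2.34, 2.59 and 2.24. The call was lost without any 1 of 9 of the 12 libraries (T-N2G DEM 2 and 3, T-N2G vehicle 2 and 3, mock DEM 1, 2 and 3, mock vehicle 2 and 3; adjusted p = 0.0577 to 0.173). With the replicate number as a block in the edgeR fit, it remained without each of the 12 (adjusted p = 2.07e-06 to 3.39e-05). In replicates 1 and 2 alone its log2 fold change was 1.31 (adjusted p = 0.304, and 0.000172 with the block).

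The alpha genes with few fragments had most of them in T-N2G DEM. Gsta1 had 26, 24 and 30 fragments in T-N2G DEM and 0 in each mock DEM library, at least 28.9-fold higher when the T-N2G DEM count is taken as measured and set against a floor of 3 counts over the mock DEM group (edgeR adjusted p = 7.43e-05 with no filter on low counts). With the counting error of both groups, the lower end of the exact 95% interval was 22.7-fold. Gsta2, its close copy, had 4, 6 and 11 fragments in T-N2G DEM and 0 in each mock DEM library, at least 7.60-fold higher by the same floor, with an exact 95% lower end of 5.58-fold. It was not tested in the main fit, as it did not pass the filter. Gm3776, the near-identical neighbour, had 88, 69 and 107 fragments in T-N2G DEM and 0, 2 and 2 in mock DEM. Its ratio of summed fragments was 70.7 per total fragment, with an exact 95% counting interval of 27.3 to 261. Taken as 1 feature, Gsta1, Gsta2 and Gm3776 together were 91.5-fold higher (log2 6.52 ± 0.53, adjusted p = 1.26e-05), a value that does not depend on how fragments were split among these 3. Each of the 3 had at most 2 fragments in any mock library. The sum therefore passed the filter on low counts through T-N2G libraries, and its p-value carries the limit given above for Gsta1. Gm10639, a further gene of this cluster, is not in the sum and could share fragments with them. It held 31.3% of the 50-base windows of Gsta1, 39.5% of those of Gm3776 and 31.8% of those of Gsta2.

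Gsta3, whose mouse enzyme detoxifies the epoxide of aflatoxin, had 17, 22 and 23 fragments in T-N2G DEM and 2 in each mock DEM library. With no filter on low counts it was higher in T-N2G DEM (log2 3.397, edgeR adjusted p = 0.0032). The groups did not overlap, and the exact 95% counting interval of the ratio of summed fragments per total fragment was 4.81 to 31.3, which covers counting error only. Among the genes not called, Gstm4 had 0.435, 0.698 and 0.458 FPKM in T-N2G DEM and 0.399, 0.562 and 0.204 FPKM in mock DEM, with overlap (log2 0.32 ± 0.35, adjusted p = 0.776). Gstm5 had 12.9, 14.1 and 11.5 FPKM in T-N2G DEM and 12.2, 13.8 and 10.9 FPKM in mock DEM, also with overlap (log2 0.07 ± 0.13, adjusted p = 0.884). Gstm6 had 0 fragments in both of these groups. Gstm3 had 0 fragments in all 12 libraries.

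In vehicle, 2 of the 10 genes were higher in the cells that expressed T-N2G, where 0.305% of all tested genes were called higher and 0.00802% lower, none of the 10 among these. Gsta4 was 15.3-fold higher (log2 3.94 ± 0.35, adjusted p = 0.000454) and Gstm1 4.82-fold higher (log2 2.27 ± 0.31, adjusted p = 0.00763). The CPM ratios by replicate number were 30.2, 9.30 and 18.9 for Gsta4, wider apart than in DEM, and 7.41, 3.50 and 5.55 for Gstm1. The call of Gstm1 was lost without mock vehicle replicate 3 (adjusted p = 0.0652). In replicates 1 and 2 alone the log2 fold changes were 3.73 for Gsta4 (adjusted p = 0.0515, and 7.27e-08 with the block) and 2.162 for Gstm1 (adjusted p = 0.554, and 2e-06 with the block).

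With the replicate block 4 of the 10 genes were called higher in T-N2G vehicle than in mock vehicle, against 3.06% of all tested genes. The added genes were Gstm2 and Gsta1. Gstm2 had 4.30, 6.70 and 7.16 FPKM in T-N2G vehicle and 2.06, 3.82 and 4.12 FPKM in mock vehicle, without overlap (log2 0.86 ± 0.31, adjusted p = 0.574, and 0.000443 with the block). Gsta1 had 6, 4 and 10 fragments in T-N2G vehicle and 0, 1 and 1 in mock vehicle (edgeR adjusted p = 0.173, and 0.0167 with the block). Its ratio of summed fragments was 9.9 per total fragment, with an exact 95% counting interval of 2.4 to 87.3. Gm3776 stood at 7, 8 and 20 fragments in T-N2G vehicle and 1 in each mock vehicle library (adjusted p = 0.0893, and 0.00196 with the block). The 3 copies as 1 feature, which passed the filter through T-N2G libraries, gave log2 3.12 ± 0.61 (adjusted p = 0.0651).

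Gsta3 had 1, 2 and 8 fragments in T-N2G vehicle and 1, 0 and 0 in mock vehicle, with overlap (adjusted p = 0.532). Gsta2 had 0 fragments in T-N2G vehicle and 1 in mock vehicle, in a single library, and Gstm6 had 2 and 1. Gstm4 had 0.632, 0.446 and 0.490 FPKM in T-N2G vehicle and 0.237, 0.223 and 0.354 FPKM in mock vehicle, without overlap but from 7 to 18 fragments a library (log2 0.90 ± 0.37, adjusted p = 0.708). Gstm5 had 14.8, 17.8 and 15.8 FPKM in T-N2G vehicle and 14.6, 17.6 and 15.01 FPKM in mock vehicle (log2 0.04 ± 0.13, adjusted p = 0.995), with CPM ratios by replicate number of 1.01, 1.02 and 1.05. Each T-N2G library of Gstm5 lay just above the mock library of its number, and the 2 groups overlapped.

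Within T-N2G cells, Gsta4 and Gstm1, 2 of the 10 genes, were higher with DEM than with vehicle, where 10.1% of all tested genes were called higher and 7.55% lower. Gsta1 and Gsta3 were called higher as well, after passing the filter through the T-N2G DEM libraries (adjusted p = 0.00731 and 0.00701 with no filter on low counts). Gsta4 was 8.56-fold higher with DEM (log2 3.10 ± 0.26, adjusted p = 2.82e-05), with CPM ratios by replicate number of 9.81, 9.06 and 7.60. Gstm1 was 4.71-fold higher (log2 2.23 ± 0.27, adjusted p = 0.000345), with ratios of 4.63, 5.03 and 4.45. Gsta1 had 80 fragments with DEM and 20 with vehicle, a ratio of 4.15 per total fragment (exact 95% counting interval 2.52 to 7.15). In the filtered fit its call was lost in replicates 1 and 2 alone (log2 2.28, adjusted p = 0.0574, and 0.00113 with the block). Gsta3 had 62 and 11 fragments, a ratio of 5.85 per total fragment (3.05 to 12.3). Gsta2 was at least 7.27-fold higher by the floor of 3 counts over the vehicle group, with an exact 95% lower end of 5.4-fold. Gm3776 had 264 fragments with DEM and 35 with vehicle, a ratio of 7.82 per total fragment (exact 95% counting interval 5.49 to 11.5). The summed epithelial and endothelial markers did not overlap between DEM and vehicle in T-N2G cells, at 68.5 to 91.97 CPM against 95.9 to 120.5 CPM with vehicle for 6 epithelial markers and 4.95 to 7.78 CPM against 10.1 to 14.5 CPM for 4 endothelial markers. The epithelial sum was mostly Krt19 (mean 77.9 CPM with DEM and 104 with vehicle). Cdh1, below 1 CPM, was lower with DEM (mean 0.407 against 0.780 CPM). Epcam, Krt8, Krt18 and Cldn4 had 4, 9, 5 and 2 fragments over the group with DEM and 3, 5, 1 and 1 with vehicle, too few to give a direction. The endothelial sum was mostly Kdr (4.37 and 8.32 CPM) and Tek (1.99 and 3.19 CPM). Pecam1 had 9 fragments with DEM and 4 with vehicle, and Cdh5 had 1 and 2, again too few to give a direction. The sums of the fibroblast (11810 to 14770 CPM with DEM and 14650 to 18960 CPM with vehicle), macrophage and leukocyte, hepatocyte and muscle markers overlapped, and 1 of 9 fibroblast markers was called lower with DEM, Col1a1 (log2 -0.54 ± 0.10, adjusted p = 0.00487), with 8 of 9 lower with the block. The part of these markers in the result was not tested.

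Gstm2 was not called with DEM in T-N2G cells (log2 0.12 ± 0.29, adjusted p = 0.805), and its libraries overlapped, with CPM ratios of 1.10, 1.05 and 1.13 by number. Gstm4 overlapped as well (log2 -0.08 ± 0.34, adjusted p = 0.893). Gstm5 stood lower with DEM in each T-N2G library than in any T-N2G vehicle library, with CPM ratios of 0.880, 0.787 and 0.727 (log2 -0.33 ± 0.13, adjusted p = 0.0999). With the replicate block it was called lower (adjusted p = 0.00456), where 22.2% of all tested genes were.

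Within mock cells 0 of the 10 genes were called with DEM by edgeR, while 7.76% of all tested genes were called higher and 6.18% lower. By unadjusted p under 0.05 in edgeR, 1 of the 7 tested genes passed, against 3740 of all 12469 tested genes. DESeq2 and limma on log2(FPKM + 1) each called 0 of the 7. Gsta4 (log2 -0.26 ± 0.51, adjusted p = 0.766), Gstm1 (log2 -0.37 ± 0.36, adjusted p = 0.524) and Gstm2 (log2 -0.26 ± 0.32, adjusted p = 0.637) had overlapping libraries. The CPM ratios of Gsta4 by number were 1.67, 0.560 and 0.915, on both sides of 1, and those of Gstm1 were 1.13, 0.735 and 0.649. Gstm4 had overlapping libraries (log2 0.50 ± 0.38, adjusted p = 0.412). Gsta1 had 0 fragments in mock DEM and 2 in mock vehicle. Gsta3 had 6 fragments in mock DEM (2 in each library) and 1 in mock vehicle (1, 0 and 0), without overlap (adjusted p = 0.24).

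Gstm5 was lower with DEM in mock cells without overlap, but was not called without the block. Each mock DEM library lay below every mock vehicle library, with CPM ratios of 0.835, 0.781 and 0.729 (log2 -0.36 ± 0.13, adjusted p = 0.0832). The block gave a call (adjusted p = 0.00265), where 21.9% of all tested genes were called lower, so such a call was not particular to Gstm5. The ratios of Gstm5 had been 0.880, 0.787 and 0.727 with T-N2G, and its DEM effects differed by 0.03 ± 0.18 on the log2 scale (adjusted p = 1).

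The difference of the DEM effects, the log2 fold change with DEM in T-N2G cells minus that in mock cells, was called above 0 for 2 of the 10 genes, against 0.417% of all tested genes called higher and 0.0160% lower. It was 3.36 ± 0.57 for Gsta4 and 2.61 ± 0.45 for Gstm1 (adjusted p = 0.0258 each, and 6.36e-06 and 5.89e-07 with the replicate block). Without the block, the call of Gsta4 was lost when any 1 of 7 libraries was left out (T-N2G DEM 3, T-N2G vehicle 2, mock DEM 1, 2 and 3, mock vehicle 2 and 3; adjusted p = 0.0508 to 0.233). That of Gstm1 was lost without any 1 of 8 (T-N2G DEM 3, T-N2G vehicle 1, 2 and 3, mock DEM 1 and 3, mock vehicle 2 and 3; adjusted p = 0.0523 to 0.105). With the block neither call was lost without any 1 of the 12 libraries. In replicates 1 and 2 alone the differences were 3.59 for Gsta4 and 2.54 for Gstm1 (adjusted p = 0.313 and 1, and 0.000221 and 2.74e-05 with the block). Gstm2 (0.38 ± 0.43, adjusted p = 1) and Gstm4 (-0.58 ± 0.51, adjusted p = 1) were not called. Gsta1 had 0 to 1 fragments in each mock library and was not called by edgeR (adjusted p = 0.865). Limma called it on log2(FPKM + 1) and log2(FPKM + 0.1), but Gsta1 passed the filter through T-N2G DEM, so this is left out of the count.

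**Figure D3:**
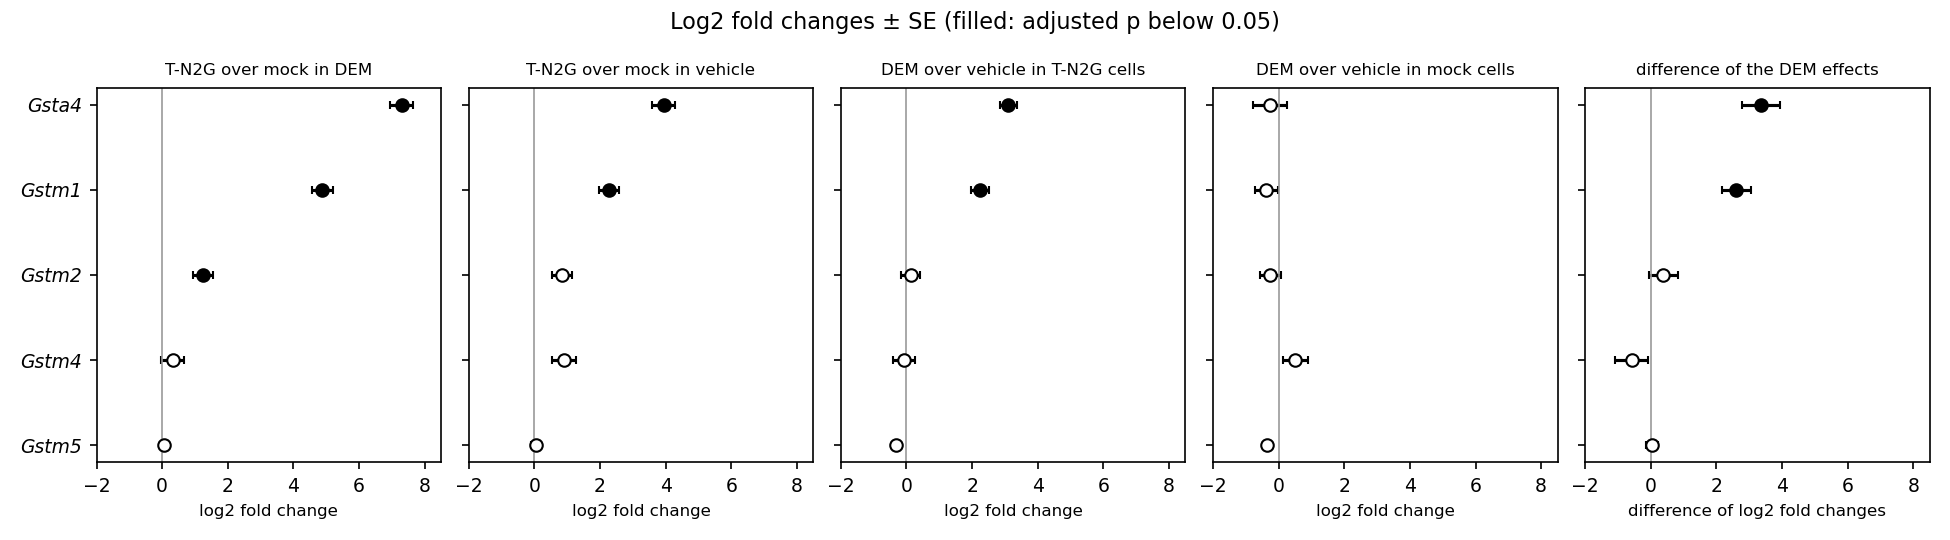
Log2 fold changes with SE from edgeR for the 5 genes with fragments in every library (rows), in the 5 comparisons (panels, all on 1 scale, n = 3 libraries a group). Filled points have an adjusted p under 0.05; Gsta4 and Gstm1 are filled in all panels but DEM over vehicle in mock cells, Gstm2 is filled in T-N2G over mock in DEM, and the SE bars of Gstm5 are narrower than or close to the points.

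Adjacent genes of a cluster differed in level and in their difference between T-N2G and mock cells. In the chromosome 3 cluster the genes run Gstm5, Gstm7, Gstm6, Gstm3, Gstm2, Gstm1 and Gstm4 in the GRCm38.p6 annotation, and Gstm1, at 93.5 FPKM in T-N2G DEM and 3.18 FPKM in mock DEM, lies between Gstm2 (6.62 and 2.78 FPKM) and Gstm4 (0.530 and 0.389 FPKM). Of the neighbours outside the cluster, Ampd2 was not called in DEM (log2 0.13 ± 0.10, adjusted p = 0.636) and Csf1 was higher in T-N2G cells (log2 0.78 ± 0.16, adjusted p = 0.0131). On chromosome 9 the order is Gsta4, Gsta1, Gm3776, Gm10639, Omt2a, Omt2b and Gsta2. There Gsta4 had 233 FPKM in T-N2G DEM and 1.46 in mock DEM, while the nearby Fbxo9 had 17.5 and 16.1 FPKM (log2 0.11 ± 0.09, adjusted p = 0.644). Gsta3 lies apart, on chromosome 1, next to Tmem14a (log2 -0.16 ± 0.24, adjusted p = 0.854).

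**Figure D4:**
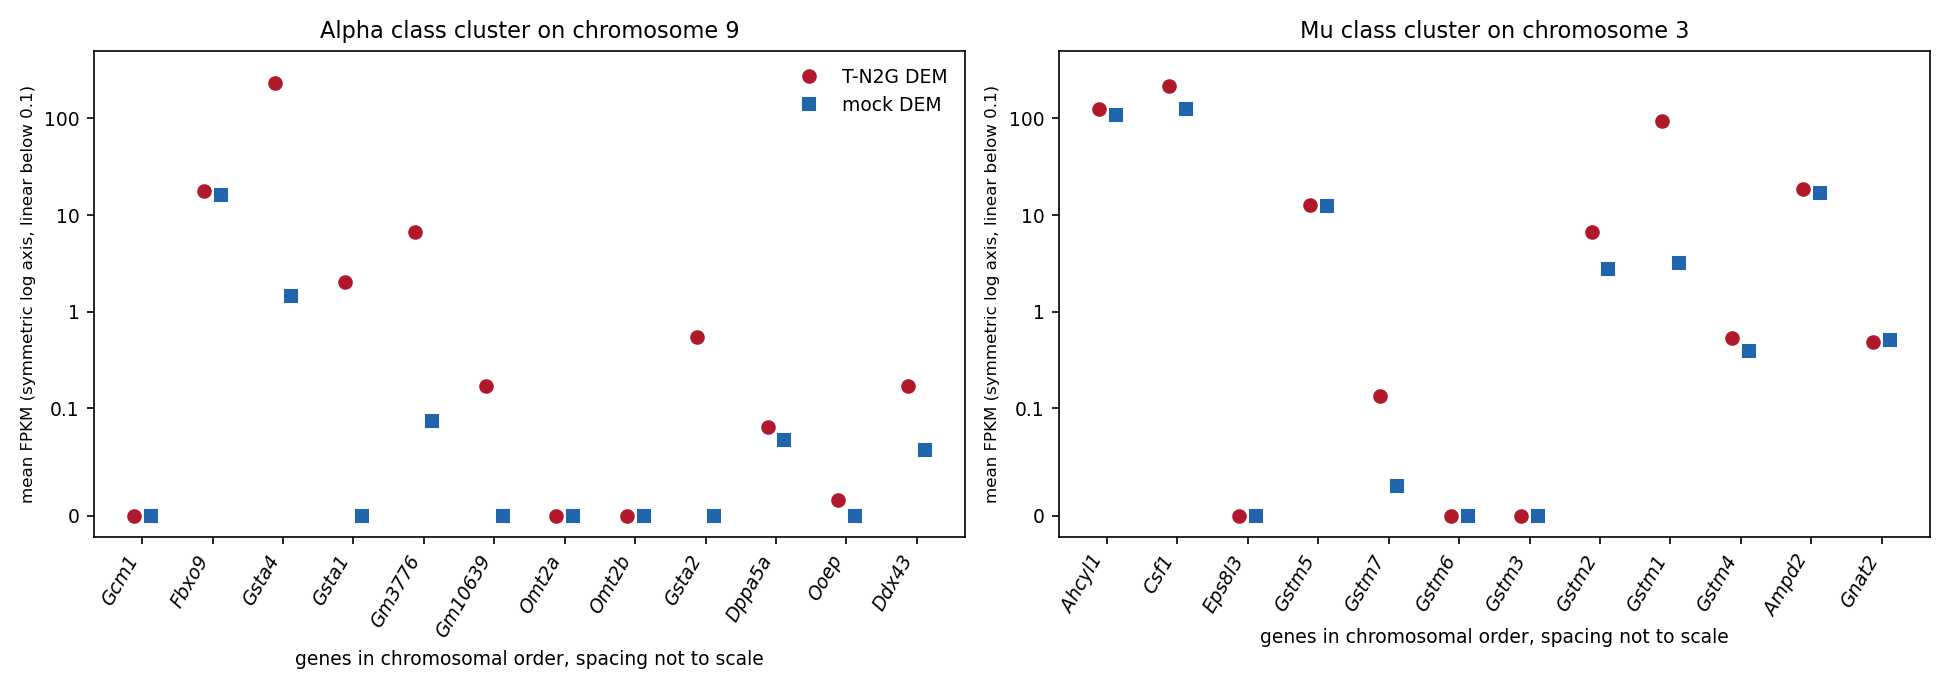
Mean FPKM of the genes of the alpha cluster (left) and mu cluster (right) and their neighbours in the table in chromosomal order, in T-N2G DEM (circles) and mock DEM (squares), on a symmetric log axis that is linear below 0.1. Gsta4 and Gstm1 stand at 233 and 93.5 FPKM in T-N2G DEM against 1.46 and 3.18 FPKM in mock DEM, while the nearby Fbxo9 and Ampd2 stand at 17.5 and 18.6 FPKM in T-N2G DEM against 16.1 and 16.9 FPKM in mock DEM. Csf1, near the mu cluster, stands at 217 against 124 FPKM.

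The promoters of 3 of the genes are shown because they differed in whether they hold the letters of an antioxidant response element. The 250 bases before the start are from RefSeq (GRCm38.p6), 5′ to 3′ on the gene's strand, with matches to the element's core TGACNNNGC or to TGANTCA, on either strand, in capitals.
Gsta3, chr1:21240335-21240584, + strand: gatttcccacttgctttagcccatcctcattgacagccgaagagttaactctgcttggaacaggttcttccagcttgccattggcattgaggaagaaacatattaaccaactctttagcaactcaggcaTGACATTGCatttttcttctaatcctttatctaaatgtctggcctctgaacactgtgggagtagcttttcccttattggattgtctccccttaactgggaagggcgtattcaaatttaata
Gstm5, chr3:107895604-107895853, + strand: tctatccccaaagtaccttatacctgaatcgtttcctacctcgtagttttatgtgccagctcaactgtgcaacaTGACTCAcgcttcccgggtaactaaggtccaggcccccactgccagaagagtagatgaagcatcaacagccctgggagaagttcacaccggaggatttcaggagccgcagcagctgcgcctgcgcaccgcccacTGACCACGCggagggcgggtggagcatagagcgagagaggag
Gstm1, chr3:108017974-108018223, - strand: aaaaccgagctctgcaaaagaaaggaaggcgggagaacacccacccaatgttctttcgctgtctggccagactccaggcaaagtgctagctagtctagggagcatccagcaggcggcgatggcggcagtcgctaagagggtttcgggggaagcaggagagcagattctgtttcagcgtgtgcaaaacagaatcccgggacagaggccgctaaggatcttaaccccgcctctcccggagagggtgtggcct
The core was matched at -121 from the start in Gsta3 and at -42 in Gstm5, which also held TGANTCA at -176, and the window of Gstm1, of the first of 2 annotated starts, held neither, nor did that of the second start. Of 9 members with a promoter in the table (all but Gsta4), searched from 250 bases before to 50 after each start, Gsta3 and Gstm5 were the ones with a match. The core was found in 12.4% and TGANTCA in 7.8% of 32851 promoters searched in the same way. These shares are per annotated start, while the members are counted per gene. Some members had several starts (Gstm6 had 3), so the 2 counts are not on the same basis. Gsta3, with the core, was higher in T-N2G DEM than in mock DEM, and Gstm5, with the core, was not called. Gstm1 was called with no match in this window. Such matches are a description of letters only.

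The genes whose levels ran most like those of each tested member over the 12 libraries are given by Pearson's r of log2 CPM, as a description with no test, since the libraries share 4 groups and a group difference alone gives a high r. Gsta4 ran most like Fth1 (r = 0.993), which encodes ferritin heavy chain, then Gstm1 (0.991) and the iron exporter gene Slc40a1 (0.989). Gstm1 ran most like Slc40a1 (0.995), Gsta4 (0.991) and Osgin1 (0.990). Gsta1 ran most like Fth1 (0.990), the heme transporter gene Slc48a1 (0.988) and Gsta4 (0.988). For Gsta3 the first was Rnf183 (0.969), followed by the pi class gene Gstp1 (0.960) and Snx10 (0.959). Gstm2 ran most like Eef2k (0.943), Clmp (0.940) and Lpar1 (0.936), and Gstm5 most like C1qtnf1 (0.968), Auh (0.964) and Ift80 (0.963), none of them shared with Gsta4 or Gstm1. Gstm4, at 7 to 19 fragments a library, had no gene above 0.841 (Hoxc12).

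The other genes of glutathione conjugation are given for comparison in DEM, T-N2G against mock cells. Of 16 other glutathione S-transferase genes, 11 were tested and 2 were higher and 0 lower (3 and 1 with the replicate block, against 10.3% and 9.32% of all tested genes), with a median log2 fold change of -0.03 against -0.005 over all tested genes. Mgst1, a membrane-bound transferase, was 10.7-fold higher (log2 3.42 ± 0.53, adjusted p = 0.00262) and the pi class gene Gstp1 1.45-fold higher (log2 0.54 ± 0.09, adjusted p = 0.00599), the last with a close copy, Gstp2, that could share its fragments. Of 9 genes of glutathione synthesis and reduction, all tested, 5 were higher and 1 lower, against 2.61% and 1.11% of all tested genes (median log2 1.18). Among them were Gclc (5.59-fold) and Gclm (5.51-fold), the subunits of the rate-limiting enzyme of glutathione synthesis, with adjusted p = 1.62e-07 each. Slc7a11, the cystine importer, was 5.85-fold higher (adjusted p = 3.27e-06) and the glutathione reductase gene Gsr 2.26-fold higher (adjusted p = 5.62e-06). The gene called lower was Chac1, which encodes a glutathione-degrading enzyme (log2 -0.70 ± 0.13, adjusted p = 0.00955), named after its values were seen. Of 20 genes of conjugate export and breakdown, 12 were tested and 2 were higher and 0 lower (3 and 1 with the block; median log2 -0.002), the exporter genes Abcc4 (3.36-fold, adjusted p = 1.62e-07) and Abcc1 (2.77-fold, adjusted p = 3.95e-05). These folds were smaller than those of Gsta4 and Gstm1, though the difference between genes was not tested.

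In the difference of the DEM effects, 5 of the 9 genes of the synthesis and reduction list, which also holds Chac1, were called higher by edgeR. Of the 12 tested genes of conjugate export and breakdown, 2 were, against 0.417% of all tested genes. The values were 1.67 ± 0.16 for Gclc (adjusted p = 0.000529) and 1.89 ± 0.17 for Gclm (adjusted p = 0.000302). Among the 11 other transferase genes, Mgst1 (2.19 ± 0.83, adjusted p = 1) and Gstp1 (0.30 ± 0.13, adjusted p = 1) passed an unadjusted p under 0.05 without being called. Of all 12469 tested genes, 455 passed an unadjusted p under 0.05 in this difference. Mgst1 was called with the block (adjusted p = 0.0314).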

How the data were processed

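Polyadenylated RNA of 12 MEF libraries was measured with a strand-specific kit, per the labels' protocols. The submitters' processing notes name Cuffdiff 2.1.1, TopHat2 2.0.8b, bcl2fastq 2.16.0.10 and the build mm9; annotation and read length are not given in the sources used here. The authors deposited estimated counts of fragments per gene and library (raw fragments, per the file headers; 98.3% whole at tolerance 0) and FPKM, which the authors deposited already scaled for length and depth. Estimated counts were rounded and tested with edgeR 4.0.16 in R 4.3.3: filterByExpr (minimum count 10, minimum total 15), TMM factors (0.980 to 1.03), 1 quasi-likelihood fit of 12 libraries with a coefficient per group, 5 contrasts, and Benjamini-Hochberg adjustment over 12469 genes. CPM used effective library sizes. Library totals were 18863560 to 23095692 fragments, and counting intervals (exact, 95%) and the floor of 3 counts cover counting error only.

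Replicate numbers stand in the sample titles and their meaning is not stated. Deviations of log2 CPM (prior count 2) from the group means correlated at r = 0.361 to 0.631 in 18 same-number pairs and at -0.422 to -0.00363 in 36 pairs whose numbers differed, so the numbers pair the libraries. The deviations were taken from means of 3 libraries, so the values of different-number pairs are not independent of those of same-number pairs. A fit with the number as a block was run beside the unblocked one. SEs and calls are from the unblocked fit, which does not use this pairing, unless the block is named.

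Named genes were the 10 members, the possible copies Gm3776 and Gstm7, the genes of the label check, Y-linked genes, cell type markers, and up to 4 called members of each of 3 pathway lists with the smallest adjusted p in T-N2G over mock in DEM, and the 3 genes of highest r per tested member. Neighbours in the annotation and Chac1 lie outside this rule and were named after their values were seen. Members and lists were chosen with earlier results of these data known. Sequences are of GRCm38, not the authors' mm9, and no coordinate was converted. Coding sequences were those of the APPRIS principal transcript. Alternatives were RLE normalization, DESeq2 1.42.0, limma 3.58.1 on log2(FPKM + 1) and log2(FPKM + 0.1), no filter, copies summed, libraries left out in turn, and replicates 1 and 2 alone. The code was tested on simulated data.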

Additional observations from a re-analysis of the deposited data

Results flagged for a closer look

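The response to DEM differed between T-N2G and mock cells for Gsta4 and Gstm1, by the interaction term of the edgeR fit. The DEM effect of Gsta4 was 3.10 ± 0.26 on the log2 scale in T-N2G cells and -0.26 ± 0.51 in mock cells, a difference of 3.36 ± 0.57 (adjusted p = 0.0258). That of Gstm1 was 2.23 ± 0.27 in T-N2G cells and -0.37 ± 0.36 in mock cells, a difference of 2.61 ± 0.45 (adjusted p = 0.0258). The T-N2G and mock groups also differed in Y-linked transcripts, as given above, and the part of this in the differences was not tested.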

How the results depend on the processing

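Of the 35 combinations of a tested gene and a comparison, none of the sign changes under an alternative was called. Without the replicate block 2 genes were called in T-N2G over mock in vehicle, with it 4, and in replicates 1 and 2 alone 0; leaving out a library gave 1 to 2 without and 3 to 4 with the block. In DEM over vehicle in mock cells 0 were called, 1 with the block, 1 in replicates 1 and 2 with the block, and 0 or 1 to 2 when a library was left out without or with the block. In the difference of the DEM effects 2 were called, 0 in replicates 1 and 2 alone, and 0 to 2 when a library was left out. Limma on either FPKM scale gave 3 only by counting Gsta1, which passed the filter through T-N2G DEM. Gsta1 and Gsta3 are left out of the next 2 comparisons, as above. In T-N2G over mock in DEM the calls of Gsta4 and Gstm1 remained without any 1 library, and that of Gstm2 was lost in 9 of 12 such fits without the block. In DEM over vehicle in T-N2G cells the calls of Gsta4 and Gstm1 also remained, and the block added Gstm5, called lower. With no filter on low counts, where Gsta1, Gsta2 and Gsta3 were tested as well, T-N2G over mock in DEM had 6 members called, all higher. Of all genes 314 were then called higher and 150 lower. With no filter, DEM over vehicle in T-N2G cells had 5 members called, all higher, against 1015 of all genes higher and 826 lower. The block changed no other call of a member than those of Gsta1, Gstm2 and Gstm5 given above, though Gstm1 was called lower with DEM in mock cells in 2 of 12 blocked fits with a library left out (lowest adjusted p = 0.0224). Leaving out libraries with the block was chosen after seeing the data.

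Signs that turned were all of uncalled values, and most turned when a library was left out. The ranges over these fits, without the block, were -1.523 to 1.577 for Gsta3 in the difference of effects, -0.646 to 0.137 for Gsta4 and -0.71 to 0.048 for Gstm1 with DEM in mock cells, -0.074 to 0.318 for Gstm2 and -0.284 to 0.044 for Gstm4 with DEM in T-N2G cells, and -0.005 to 0.682 for Gstm4 in T-N2G over mock in DEM. For Gstm5 they were -0.067 to 0.109 in the difference, -0.017 to 0.15 in T-N2G over mock in DEM and -0.04 to 0.128 in vehicle. With the block the turned values were -1.652 for Gsta3 and -0.02 and -0.013 for Gstm5 in the difference, 0.19 for Gsta4 in mock cells, 0.02 and 0.077 for Gstm4 in T-N2G cells, and -0.005 for Gstm5 in vehicle. By limma, Gstm4 with DEM in T-N2G cells had 0.005 on log2(FPKM + 1) and 0.004 on log2(FPKM + 0.1). The cause was not tested. All genes called numbered 39, 463 and 54 in T-N2G over mock in vehicle, in DEM and in the difference, against 785, 2445 and 349 with the block and 108, 702 and 98 by DESeq2; with DEM in T-N2G and mock cells they were 2195 and 1737, against 5615 and 5339 with the block. In replicates 1 and 2 alone the 5 counts were 6, 143, 6, 445 and 123, and 310, 1601, 198, 4618 and 4382 with the block. Depth limits Gsta1, Gsta2, Gsta3, Gstm3 and Gstm6, at 0 to 2 fragments in each mock library.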
